A study of Mus musculus with 4 samples.

Results

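High endothelial venules are the plump-walled blood vessels through which lymphocytes leave the blood and enter Peyer's patches and lymph nodes. The 8 genes described here (Glycam1, Madcam1, Chst4, Fut7, Nkx2-3, Sele, Selp and Vcam1) were chosen by their known roles in these vessels and in activated endothelium, with the high Glycam1 value of the colonized Peyer's patch already in view, so their values are given as a description. They are 8 of the 18193 genes that a single gene name marks on the array, and 14 of its 45037 probe sets carry their names. Total RNA came from C57BL/6 mice kept in isolators, and each of 4 Affymetrix arrays held RNA of pooled mice. The groups were Peyer's patch cells of germ-free (GF) mice given 100000000 Lactobacillus NK318.1 and sampled 2 weeks later, Peyer's patch cells of GF mice without bacteria, and intestinal epithelial cells of each. All mice were thus GF mice, with 1 bacterial strain as the only named difference, and their ages and sexes are not given in the labels. With 1 array per group there is no spread between replicates and no test, and every difference below is a ratio of 2 arrays.

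A lymphocyte first rolls along such a vessel on sugars of the vessel wall, then answers a chemokine, arrests through its integrins and crosses the wall. The sugars are made by fucosyltransferases, such as the enzyme of Fut7, and by sulfotransferases, such as that of Chst4, on mucin-like carriers, one of which is the secreted protein of Glycam1. In the gut, the vessels of Peyer's patches also display MAdCAM-1, the ligand of the integrin α4β7, and the homeobox factor NKX2-3 is needed in mice for its normal display there. Sele and Selp encode E- and P-selectin of inflamed endothelium, the second also stored in platelets, and Vcam1 encodes the ligand of the integrin α4β1.

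RefSeq promoter sequences (build GRCm38.p6, 250 bases before the annotated start and 50 from it) were on hand for 7 of the 8 genes. Those of Glycam1 and Madcam1 are shown because both genes belong to the same vessels and had unlike ratios in the Peyer's patch. Each is printed 5′ to 3′ in the direction of the gene. Capitals mark matches to GGNNTTTCC, a short form of the NF-κB motif, on either strand. The Glycam1 window is chr15:103565032-103565331 on the minus strand, and the Madcam1 window is chr10:79664309-79664608 on the plus strand.
Glycam1: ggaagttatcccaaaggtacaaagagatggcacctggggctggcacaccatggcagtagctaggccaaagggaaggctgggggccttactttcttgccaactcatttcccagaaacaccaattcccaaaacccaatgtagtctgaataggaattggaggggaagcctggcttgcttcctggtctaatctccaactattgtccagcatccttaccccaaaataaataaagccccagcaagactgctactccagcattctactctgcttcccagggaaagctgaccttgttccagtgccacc
Madcam1: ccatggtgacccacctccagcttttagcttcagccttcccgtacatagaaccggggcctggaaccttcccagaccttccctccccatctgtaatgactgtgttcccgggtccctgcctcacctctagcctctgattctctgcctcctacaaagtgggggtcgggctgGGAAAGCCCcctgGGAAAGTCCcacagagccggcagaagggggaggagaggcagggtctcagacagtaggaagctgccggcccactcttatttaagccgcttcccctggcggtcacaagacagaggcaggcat
The Madcam1 window held 2 matches, both on the opposite strand, which began 83 and 70 bases before the start and did not overlap. The Glycam1 window held none. Of all 32851 promoter windows, 5.82% held this motif. The Selp window held 1 match, 14 bases before the start, and the windows of Sele, Chst4, Nkx2-3 and Fut7 (which has 2 windows) held none. TNAAGTG, the motif of NKX2 factors, was found in 11.5% of all windows on either strand and in no window of these genes. A match is a match of letters, not a bound site.

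The deposited signal is a linear intensity that the MAS5 algorithm gives per probe set, so ratios compare arrays and not genes. A signal summed over a list is carried mostly by its brightest probe sets. A floor was set at a signal of 15.5, the 40th percentile of intensity. Lower signals were raised to it, and a gene is called measured where at least 1 of the 2 arrays compared exceeded it. Median signals of the 4 arrays lay between 22.97 and 23.3. The tissue labels fit their markers. Cd79b, of the B cell receptor, had a signal of 3270 in the colonized and 3443 in the GF Peyer's patch, against 17.4 and 17.8 in the epithelial cells. Epcam, of epithelial cells, had 57.0 and 75.9 in the Peyer's patch, against 3623 and 3926 in the epithelial cells. The 3′ to 5′ ratio of β-actin, a sign of RNA breakage where it is high, was 1.74 in the colonized and 1.60 in the GF Peyer's patch, while the epithelial cells gave 4.10 with bacteria and 2.73 without. The X-linked Xist, made in female cells, had a signal of 4586 in the colonized and 21.7 in the GF Peyer's patch, while the epithelial cells gave 4889 with bacteria and 46.7 without. The Y-linked Eif2s3y had 2.998 in the colonized and 300.1 in the GF Peyer's patch, while the epithelial cells gave 2.41 with bacteria and 146.7 without. The pools of each tissue thus differed in sex-linked RNA as well as in bacteria, and the 2 cannot be told apart in any value of colonized over GF.

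**Figure D1:**
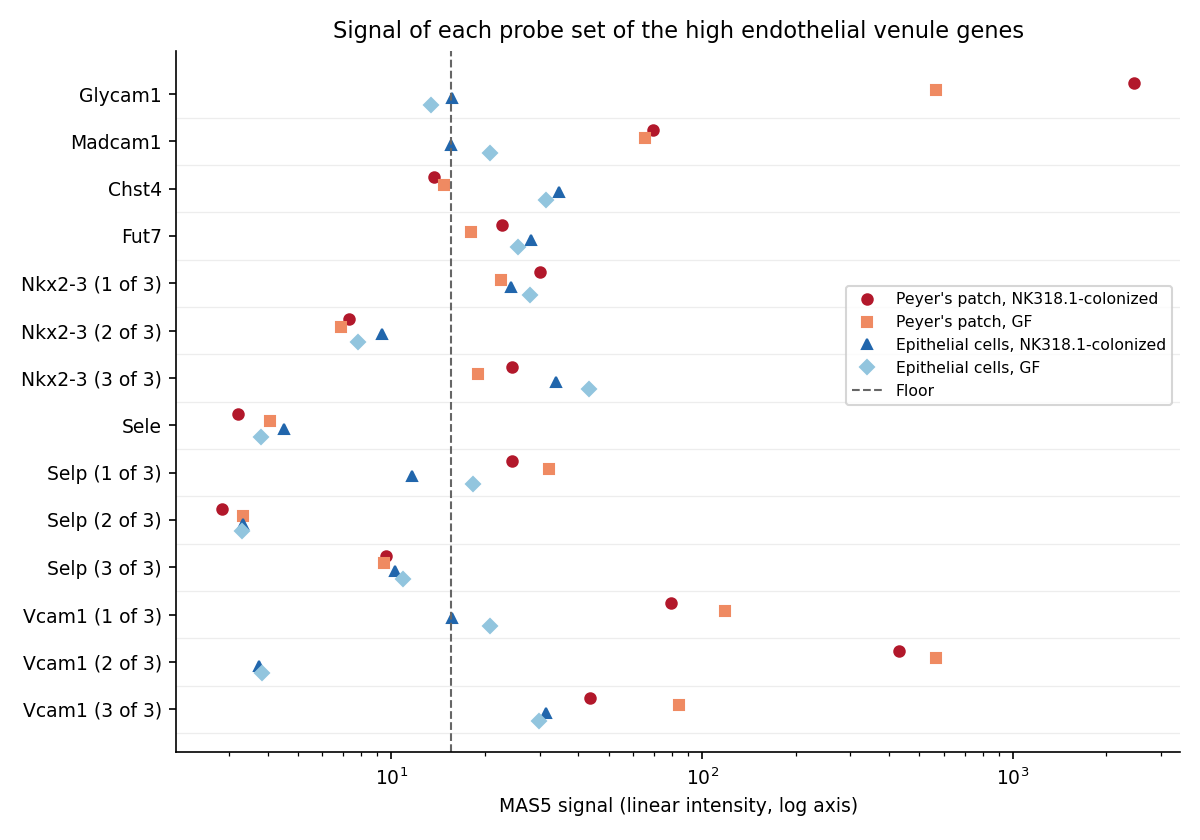
MAS5 signal (log axis) of the 14 probe sets of the 8 genes on the 4 arrays, 1 pooled array per group; the dashed line is the floor of 15.5. Glycam1 reached 2457 in the colonized Peyer's patch, against 565 in the GF Peyer's patch, while Sele lay under the floor on every array.

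Of the 8 genes, 6 were measured in the Peyer's patch and 1, Glycam1, differed at least 2-fold there. Its signal was 2457 in the colonized and 565 in the GF Peyer's patch, a log2 ratio of 2.12 or 4.35-fold. Among all 12736 genes measured, 19 (0.149%) were higher by 2-fold or more with bacteria and 73 (0.573%) were lower by as much, and none of the 6 members was lower by that much. The Glycam1 ratio was the 4th highest of all measured genes, and 95% of all log2 ratios fell between −0.60 and 0.41, leaving out equal tails. The member with the next highest ratio, Nkx2-3, had 0.36. The median over the 6 members was 0.21, against −0.03 over all measured genes, and 4 of the 6 lay above 0. Of all genes measured in the Peyer's patch 42.5% lay above 0, the share to set beside each such count there. Without the floor, which brings Chst4 and Sele in, the median over the members was −0.01. In whole tissue, fewer cells of a type and less RNA per cell cannot be told apart, which holds for each ratio here.

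**Figure D2:**
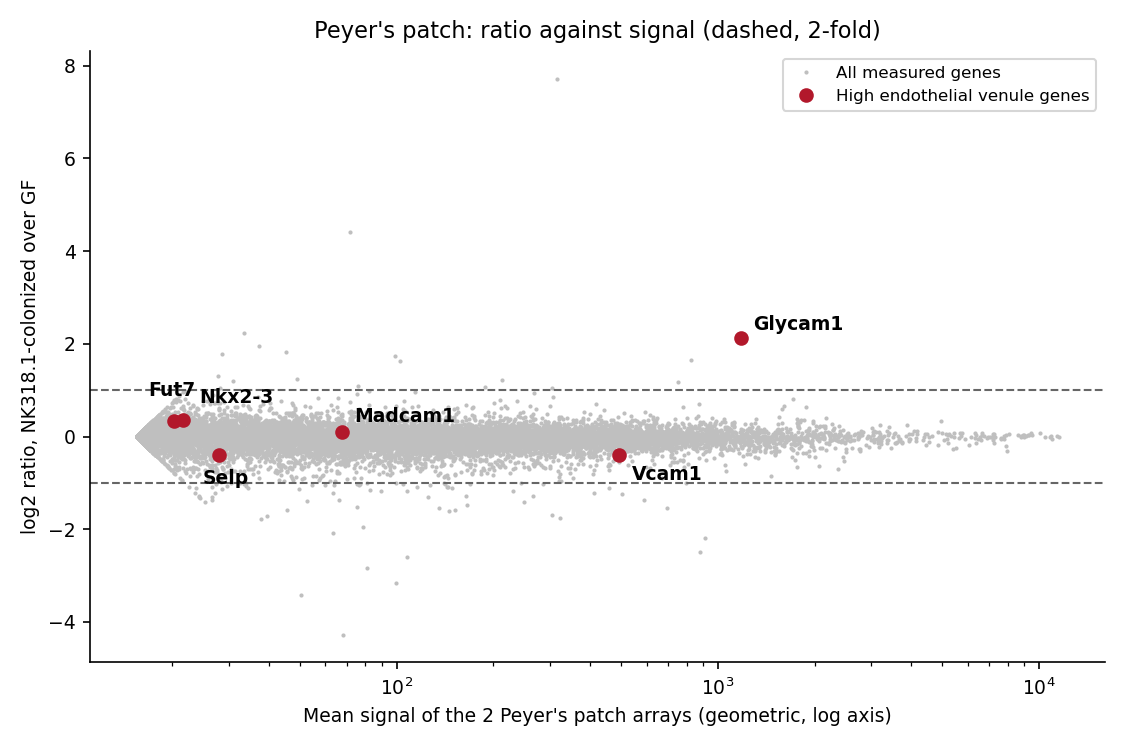
Log2 ratio of colonized over GF Peyer's patch against the geometric mean signal of both arrays (log axis), for 12736 measured genes (grey) and the 6 measured high endothelial venule genes (red); dashed lines mark 2-fold. Glycam1 stands at 2.12, and the other 5 lie between −0.40 and 0.36.

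Glycam1 is represented by 1 probe set, so no second one could be set beside it. Its suffix a_at marks probes that detect several transcripts of 1 gene, and when all such less specific probe sets were left out, Glycam1 had no value and 0 members differed 2-fold between the Peyer's patches. In the epithelial cells it lay at the floor, with 15.7 in colonized and 13.4 in GF mice. The colonized Peyer's patch was therefore 156-fold above the colonized epithelial cells, whose value barely passed the floor, and the GF Peyer's patch was at least 36.5-fold above the GF epithelial cells, whose value did not. Glycam1 is also a milk protein gene of the mouse mammary gland. Of 8 mammary and milk genes listed, 6 did not reach the floor in either Peyer's patch, among them Wap, of whey, and the casein genes Csn1s1, Csn1s2a and Csn3. The 2 measured ones were Lalba, of the milk sugar enzyme, with a signal of 22.2 in the colonized and 18.3 in the GF Peyer's patch, and Csn2, of β-casein, with 236 and 432. The Csn2 ratio was −0.87, and −1.08 by a second probe set, opposite in sign to that of Glycam1. The part of these genes' source in the Glycam1 value was not tested.

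Madcam1, the vascular addressin of the gut, had nearly equal signals of 69.7 in the colonized and 65.5 in the GF Peyer's patch. The log2 ratio of 0.09 lay well within the central 95% of all genes. The epithelial cells had 15.5 in colonized and 20.7 in GF mice, a ratio of −0.42 with both values near the floor.

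The enzymes and the transcription factor had Peyer's patch signals near or under the floor. Fut7 had 22.7 in the colonized and 18.1 in the GF Peyer's patch (log2 ratio 0.32), while the epithelial cells gave 28.2 with bacteria and 25.6 without (0.14). Chst4 lay under the floor in the colonized and GF Peyer's patch, at 13.7 and 14.8, and above it in the epithelial cells, at 34.6 in colonized and 31.4 in GF mice. Chst4 thus passed the floor only in the epithelial cells and has no ratio in the Peyer's patch. Nkx2-3 has 3 probe sets. The one with the highest mean signal had 24.5 in the colonized and 19.0 in the GF Peyer's patch (0.36), another had 30.2 and 22.6 (0.42), and the third, between 6.88 and 9.36, was under the floor on all 4 arrays. Epithelial cells gave 33.9 in colonized and 43.2 in GF mice by the first (−0.35), and 24.3 and 28.0 by the second (−0.20). Among genes with a mean signal under 2 times the floor, the central 95% of Peyer's patch ratios ran from −0.63 to 0.49, and those of Fut7 and Nkx2-3 lay within it.

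The adhesion molecules of activated endothelium came next, and all 3 probe sets of Vcam1 had lower signals in the colonized Peyer's patch. They gave 431 in the colonized and 566 in the GF Peyer's patch (−0.39), 79.4 and 118 (−0.58), and 43.5 and 84.4 (−0.96). The last of these lay below the central 95% of ratios of all genes, and the other 2 lay within it. With quantile normalization, where a different probe set represented the gene, its ratio was −0.89. Among epithelial cells the first of these probe sets was under the floor in both arrays, while the second gave 15.7 in colonized and 20.8 in GF mice and the third 31.4 and 29.9. Selp had 24.4 in the colonized and 32.2 in the GF Peyer's patch (−0.40) by 1 probe set, and its other 2, between 2.85 and 10.9, were under the floor on every array. Its epithelial signal was 11.6, under the floor, in colonized and 18.3 in GF mice. Sele was under the floor on all 4 arrays, at 3.20 and 4.08 in the colonized and GF Peyer's patch and, for epithelial cells, 4.50 in colonized and 3.79 in GF mice.

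Vcam1 is also displayed by stromal cells and macrophages, whose markers were lower in the same array. Of 12 measured markers of follicular dendritic and reticular cells, 11 lay below 0, with a median log2 ratio of −0.30 and a summed signal of 6682 in the colonized and 7848 in the GF Peyer's patch. Lowest were Coch (−0.96) and Il7 (−0.68 or lower), and Cr2, the complement receptor of these cells and B cells, had −0.30. Of 9 measured macrophage markers all 9 lay below 0, with a median of −0.42 and sums of 5160 and 6517, and C1qa, a complement subunit, was lowest at −0.72. None of either list was 2-fold apart, and Cd163 and Vsig4 were under the floor in both arrays. For Selp, the 4 measured platelet markers ran from −0.33 for Itga2b to 0.00 for Gp1bb, with summed signals of 213 and 243 over the listed genes, and Ppbp lay under the floor on all 4 arrays. The part of these cells in the Vcam1 and Selp values was not tested.

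Among epithelial cells none of the 6 measured members was 2-fold apart. Of all 13874 genes measured there, 365 (2.63%) were at least 2-fold higher in the colonized array and 213 (1.54%) at least 2-fold lower. The 6 members ran from −0.42 for Madcam1 to 0.14 for Fut7, with a median of −0.11 against 0.02 for all genes, of which 52.4% lay above 0. Chst4 also had 0.14. The highest epithelial signal among the 6 was 43.2, in Nkx2-3 of GF mice.

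Between the tissues, 3 of 7 measured members, Glycam1, Madcam1 and Vcam1, were at least 2-fold higher in the Peyer's patch than in the epithelial cells, in the colonized and in the GF mice alike. Of all genes, 16.8% in colonized and 18.5% in GF mice were that much higher in the Peyer's patch. Madcam1 was 4.49-fold higher in colonized and 3.17-fold in GF mice. Vcam1 was at least 27.8-fold and 36.5-fold higher by its brightest probe set, 5.05-fold and 5.71-fold by the second, and 1.38-fold and 2.82-fold by the third, so its probe sets differed widely in size while pointing the same way. Chst4 was at least 2.23-fold lower in the Peyer's patch in colonized and 2.02-fold in GF mice, and Nkx2-3 was 2.27-fold lower in GF mice by its brightest probe set and 1.24-fold lower by the other. In colonized mice those 2 probe sets of Nkx2-3 gave log2 ratios of −0.47 and 0.31, on either side of 0. Of all genes, 18.4% in colonized and 16.0% in GF mice were at least 2-fold lower in the Peyer's patch.

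**Figure D3:**
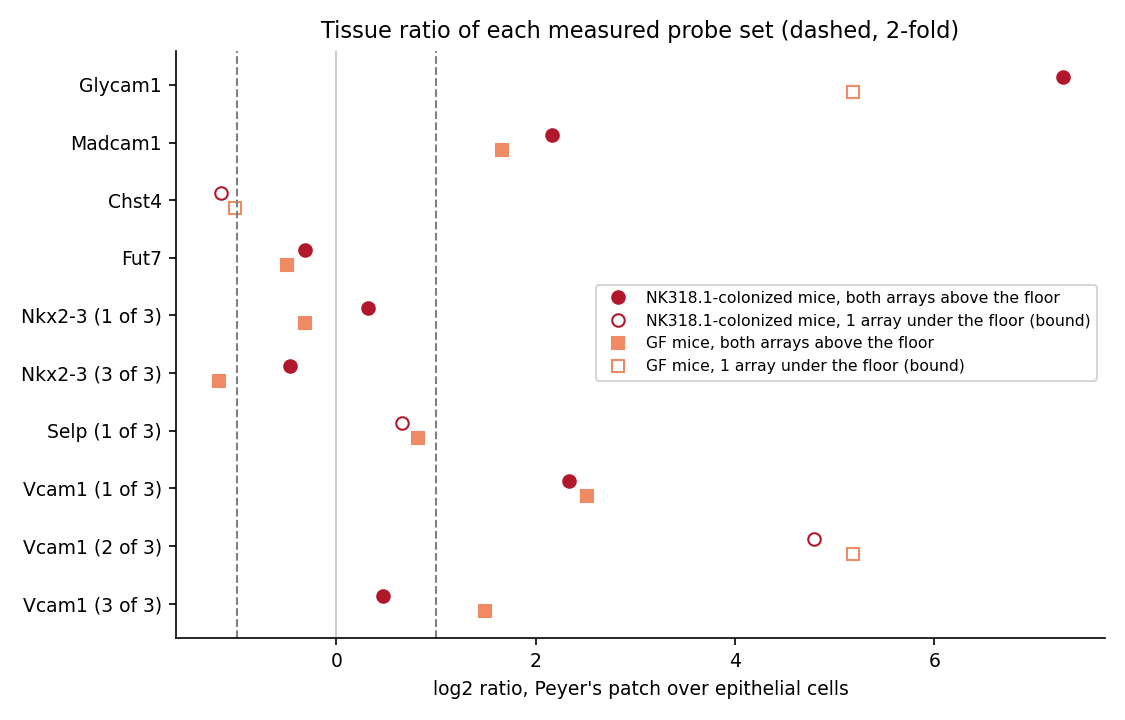
Log2 ratio of Peyer's patch over epithelial cells for the 10 measured probe sets, in colonized mice (circles) and GF mice (squares); open symbols have 1 array under the floor and are bounds, and dashed lines mark 2-fold. Glycam1, Madcam1 and the first 2 probe sets of Vcam1 lie beyond 2-fold in both, and Chst4 lies on the opposite side.

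Other endothelial genes were described next. Because Glycam1 was chosen with its high ratio in view, it was bound to lie above most lists, and its distance from them is no result. Of 20 pan-endothelial markers, 13 were measured in the Peyer's patch and none was 2-fold apart by the probe set that represented it. A second probe set of Cd93, a receptor of endothelial cells, gave −1.20, against −0.66 for the one used. The median log2 ratio of the 13 measured markers was −0.03, with 6 above 0 and 7 below. Pecam1, of endothelial junctions, had 57.3 in the colonized and 70.7 in the GF Peyer's patch (−0.30), and Cdh5, which encodes VE-cadherin, had 35.9 and 66.2 (−0.88, the lowest of the list). Highest was Cldn5, of tight junctions, with 91.8 and 69.4 (0.40). The listed markers summed to 1533 and 1483, of which S1pr1, also made by lymphocytes, gave 705 and 614. The endothelial markers Tek, Tie1 and Vwf lay under the floor on all 4 arrays, as did 4 of the 14 member probe sets.

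The genes of the mucin-like carriers and of their sugar synthesis formed a further list. Of 19 measured, none was 2-fold apart in the Peyer's patch, 14 lay below 0 and the median was −0.12, while 42.5% of all measured genes lay above 0. Highest was Parm1, of a mucin-like membrane protein, with 259 in the colonized and 157 in the GF Peyer's patch (0.72, and 0.50 by another probe set). Podxl, of a sialomucin carrier, had 21.6 and 16.3 (0.40), and Cd34, another carrier, had 21.1 and 18.3 (0.20). Lowest was Chst1, a sulfotransferase gene, with 57.2 and 113.9 (−0.99), followed by the sialyltransferase gene St3gal4 with 26.6 and 36.2 (−0.45). The 3 carriers lay above 0, but the signals of Podxl and Cd34 were near the floor. Their ratios lay within the central 95% of genes near it, −0.63 to 0.49. By the probe sets used, all 14 genes below 0 were of sugar synthesis, and of that group only Chst2 and Slc35c1 (0.11 each) lay above. Chst2, whose sulfotransferase acts beside that of Chst4 in mice, had 23.9 and 22.2 (0.11), and the carriers Emcn and Cd300lg reached the floor in neither Peyer's patch.

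Of 10 other measured adhesion and chemokine genes of these vessels, 9 lay below 0 in the Peyer's patch, with a median of −0.20 and none 2-fold apart. F11r, a junctional adhesion molecule, was lowest with 68.1 in the colonized and 106.1 in the GF Peyer's patch (−0.64). Icam1, the integrin ligand of arrest, had 366 and 470 (−0.36), and Cxcl13, the chemokine that draws B cells, had 1374 and 1687 (−0.30). The list of inducers and transcription factors had a median of 0.02 over 14 measured genes, again with none 2-fold apart. Of these 14, 8 lay above 0 and 6 below. The lymphotoxin genes Lta and Ltb, whose products maintain the vessels, had 136 and 112 (0.28) and 3679 and 3168 (0.22). Nfkb2, of the pathway downstream, had 145 and 112 (0.37). Ltbr, of the lymphotoxin receptor, had 26.8 and 34.3 (−0.36), and Map3k14 had −0.06. Gata2 was lowest (−0.71), Relb had −0.40, and the endothelial factor Sox18 was highest (0.43).

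On the lymphocyte side, none of 12 measured partner genes was 2-fold apart in the Peyer's patch and 9 lay below 0, with a median of −0.20. Itgb7, the β chain of the MAdCAM-1 receptor, had 730 in the colonized and 679 in the GF Peyer's patch (0.11). Itga4, the α chain of that receptor, had 656 and 803 (−0.29, with other probe sets from −0.40 to 0.13). The chemokine receptor genes Cxcr4 and Ccr7 had 851 and 1294 (−0.60) and 619 and 858 (−0.47). Of 11 measured T cell markers, 10 lay above 0 in the same arrays, with a median of 0.23 and sums of 8512 and 7213. Of 9 measured B cell markers, 8 lay below 0, with a median of −0.14, and Pax5, a B cell transcription factor, was lowest at −0.75 (0.24 by another probe set). The part of these shifts in the Glycam1 ratio was not tested.

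**Figure D4:**
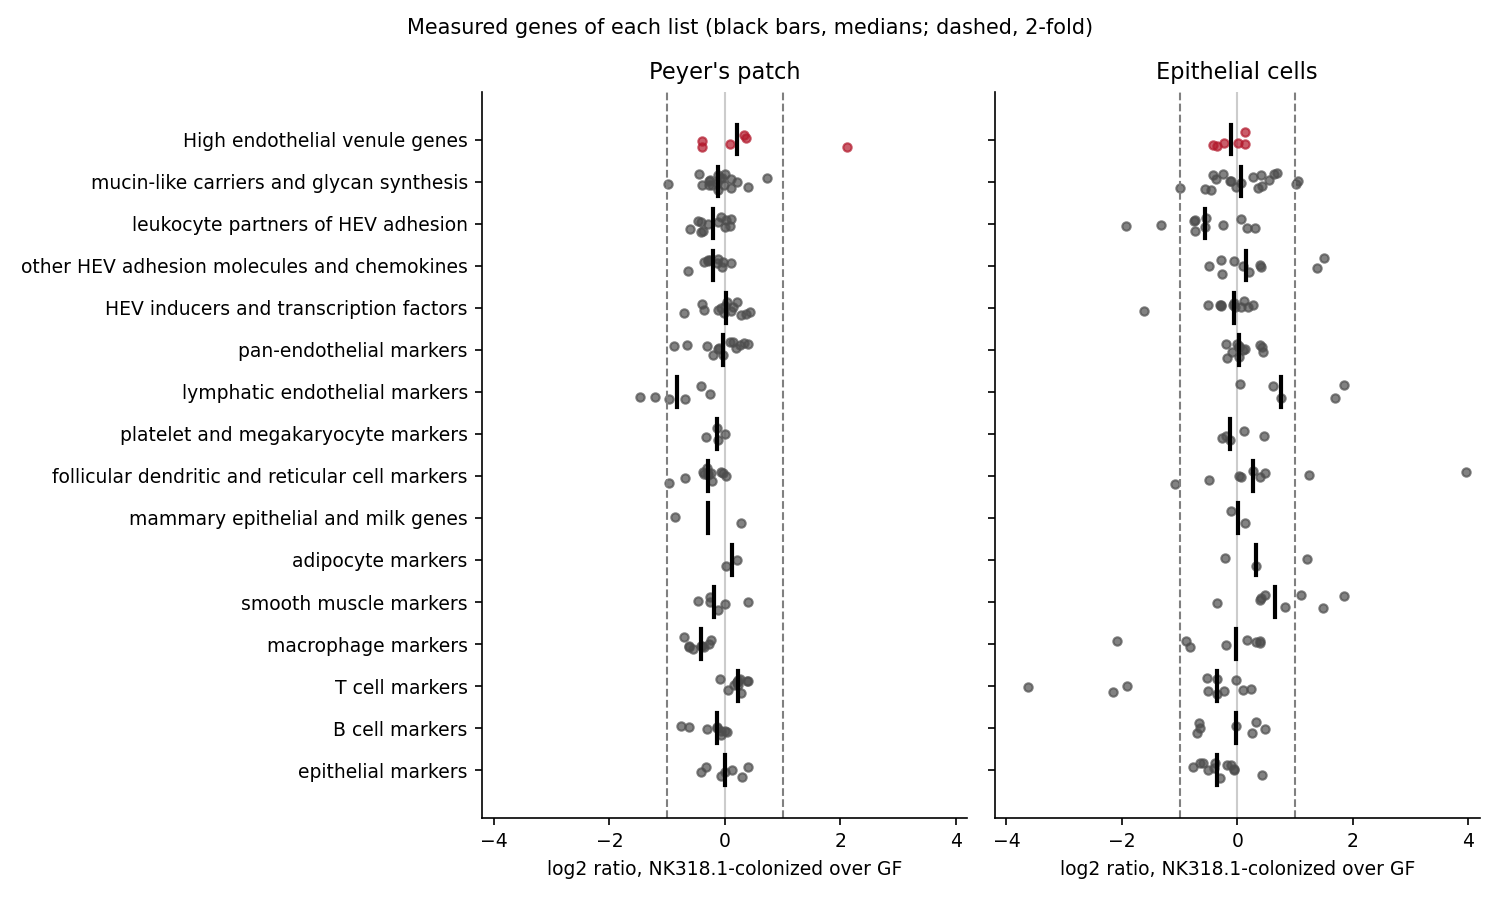
Log2 ratio of colonized over GF for each measured gene of the high endothelial venule genes (red) and of the other gene lists (grey, without the sex-linked genes; HEV, high endothelial venule), in the Peyer's patch (left) and the epithelial cells (right), 1 pooled array per group; black bars are medians and dashed lines 2-fold. In the Peyer's patch Glycam1 (2.12) is the only point above 2-fold.

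Several genes of these lists were at least 2-fold apart in the epithelial cells, while no member was. Cxcl12, the chemokine that CXCR4 binds, had 43.8 in the colonized and 11.8, under the floor, in the GF array (2.82-fold or more), and Il33, an alarmin of endothelial and stromal cells, had 144 and 55.2 (log2 ratio 1.39). Parm1 had 155 and 75.1 (1.05) and Cd34 31.2 and 9.90 (1.01 or more). Ets1, a factor of lymphocytes and endothelium, had 27.1 and 83.2 (−1.62, with other probe sets from −1.04 to −0.01). Itgb2, the leukocyte integrin chain, had 24.5 and 61.5 (−1.33). Ccr9, the gut homing receptor, had 9.66 and 59.0 (−1.93 or lower, and −1.15 by another probe set). In the same arrays the 11 T cell markers had a median of −0.36 (−0.76 without the floor), with sums of 627 and 965. Of these, 9 lay below 0 and 2 above. At least 2-fold lower were 3, namely the CD3 chain genes Cd3g (−3.62 or lower) and Cd3d (−1.92) and the co-receptor gene Cd8a (−2.15). Other probe sets of Cd8a ran from −1.53 to −0.52. Another CD3 chain gene, Cd3e, had 273 in the colonized and 230 in the GF array (0.24). Smooth muscle markers had a median of 0.66 (1.32 without the floor), with sums of 1014 and 812. Of these sums Mylk, the only 1 of the 8 markers below 0 (−0.35), gave 471 and 600. The part of T cells and smooth muscle in the epithelial values was not tested, nor was that of the higher 3′ to 5′ ratios of the colonized array. Pan-endothelial markers had a median of 0.03 there, with none of 12 measured 2-fold apart.

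The genes most like Glycam1 and Madcam1 were found by the distance between their 4 floored log2 signals, each centred on its own mean, among 14349 other genes above the floor on at least 1 array. For Glycam1 the nearest were Srpk3, Marco and Rasal3, at distances of 1.28, 1.29 and 1.34 on the log2 scale. Like Glycam1, these genes had high Peyer's patch signals and epithelial signals near or under the floor, but their colonized over GF ratios in the Peyer's patch were 0.32, 0.40 and 0.39. Their epithelial points are in part the floor itself, as is that of Glycam1 in GF mice, so these distances rest mainly on the Peyer's patch. For Madcam1 the nearest were Crebrf (0.034), B3gnt2 (0.069) and Rhof (0.089). No neighbours are given for Vcam1, whose representing probe set was under the floor in both epithelial arrays. The 4 points of each profile come from the same 4 arrays, and likeness over them is a description.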

How the data were processed

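Signals of 45037 probe sets on 4 arrays were taken as deposited, beside 64 controls used only for 3′ to 5′ ratios. The authors computed these with MAS5, as 1 linear intensity for each probe set, from RNA of pooled mice. The version and settings of MAS5 were not given in the sources used here. Their methods name R and limma, but with 1 array per group a ratio within a tissue has no residual degrees of freedom and so no adjusted p-value or error. An additive fit over both tissues was not run. Gene names came from the platform annotation. It gives no gene for 9160 probe sets, and 932 that name several genes were left out. Where a gene had several probe sets, the one brightest on average over the 4 arrays (log2 intensity) stood for it. Signals under 15.5 (the 40th percentile of an array, as a median of 4) were raised to it, and ratios against a raised value are bounds. The 2-fold limit is that of the methods.

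The members and gene lists were chosen with earlier results of these data known. Genes could be named if they were members, within the top 3 or bottom 3 of their list in the Peyer's patch, 2-fold apart in either tissue, or nearest to Glycam1, Madcam1 or Vcam1, and not every gene that met this rule is named. Pecam1, Cdh5, Xist and Eif2s3y were also fixed by name. Cd79b, Epcam and the other genes outside these rules were chosen after their values were seen, as markers or for their roles. The ratio and count code was tested on simulated data. Python 3.11.15, numpy 2.4.6, pandas 2.3.3 and matplotlib 3.10.9 were used.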

Additional observations from a re-analysis of the deposited data

Results flagged for a closer look

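The lymphatic endothelial genes Reln and Mmrn1 drew notice because bacteria went with opposite shifts of 2-fold or more, lower in the Peyer's patch but higher in the epithelial cells. Reln, of a secreted matrix protein, had a signal of 99.6 in the colonized and 277 in the GF Peyer's patch, while the epithelial cells gave 56.1 with bacteria and 12.2 without, so its log2 ratios of −1.48 and 1.85 differed by −3.33. Mmrn1, of multimerin, had 14.4 in the colonized and 35.8 in the GF Peyer's patch, while the epithelial cells gave 49.98 with bacteria and 7.63 without, and the floored ratios of −1.21 and 1.69 differed by −2.90. Signals of 12.2, 14.4 and 7.63 are under the floor, so the Reln ratio of 1.85 and both Mmrn1 ratios are bounds. This contrast of tissues was not tested, since each ratio comes from 2 arrays. No high endothelial venule gene was 2-fold apart in opposite directions.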

How the results depend on the processing

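No paired analysis was possible because there was a single array per group. The Glycam1 log2 ratio in the Peyer's patch ran from 2.11 to 2.28 over the settings that could give it. Leaving out probe sets with the suffix s_at, x_at or a_at removed Glycam1, Madcam1 and Chst4, which have no other, so 0 members were then 2-fold higher in the Peyer's patch, 1 was higher there than in the epithelial cells of colonized mice and 1 than in those of GF mice, and the median ratio in the Peyer's patch was −0.033. Keeping a_at probe sets, which detect several transcripts of 1 gene, was added after seeing the data and gave the same counts as the values above. Without a floor the median was −0.010. Of 60 member counts 57 stayed within 1.5 times, and of 80 single ratios 76 moved by less than the central spread of all genes. The 57 include counts of members lower with bacteria in the Peyer's patch, and higher or lower with bacteria in the epithelial cells. Those counts were 0 in every setting. Vcam1 in the Peyer's patch moved to −0.89 with quantile normalization, where another of its probe sets represented it, and to −0.64 with averaged probe sets, and Selp in the epithelial cells to −0.65 without a floor or with the 25th percentile. At the 60th percentile Fut7, Nkx2-3 and Selp had no ratio in the Peyer's patch. Of 239 medians of the other lists 9 moved, among them, in the epithelial cells, smooth muscle markers to 1.27 with the 25th percentile and 1.32 without a floor, and T cell markers to −0.76 with either. Glycam1 rests on 1 probe set and 1 array per group, and the Peyer's patch signals of Chst4, Sele, Selp and Fut7 lay near or under the floor.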

Other observations

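Lymphatic endothelial markers took a course unlike that of the venule genes. All 6 measured in the Peyer's patch lay below 0, with a median log2 ratio of −0.83 and summed signals of 489 in the colonized and 948 in the GF Peyer's patch. Lyve1, the hyaluronan receptor of lymphatic vessels, had 229 and 446 (−0.96), and Flt4, the receptor of lymphatic growth factors, had 51.0 and 60.8 (−0.25, and 0.08 by another probe set). All 5 measured in the epithelial cells lay above 0, with a median of 0.76 and sums of 290.1 and 156. Prox1, the defining factor of these vessels, lay under the floor on all 4 arrays.

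In the epithelial cells the follicular dendritic and reticular list held Clu, of the secreted chaperone clusterin, with a signal of 1387 in the colonized and 89.1 in the GF array (log2 ratio 3.96). The smooth muscle genes Acta2 and Tagln had 261 and 72.9 (1.84) and 106 and 37.6 (1.49). In the Peyer's patch their ratios were −0.29, −0.46 and −0.27. Pdgfra, of a stromal growth factor receptor, had 57.2 and 24.1 in the epithelial cells (1.25), and Bst1, of a stromal surface enzyme, 40.8 and 86.6 (−1.09). Lyz2, of macrophage lysozyme, had 298 and 1265 there (−2.09). Of 8 measured macrophage markers in the epithelial cells, 4 lay above 0 and 4 below, with a median of −0.02.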
